A study of Mus musculus with 4 samples.

Results

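The genes described here are the mouse zinc finger genes that lie close together on the chromosomes. They were chosen by name and position alone: protein-coding genes of chromosomes 1 to 19 whose symbol is Zfp followed by a number, with at least 2 other such genes starting within 500000 bp. Of 20665 coding genes on these chromosomes, 360 carry such a symbol and 215 met the rule. The other 145 lie outside clusters. Symbols with a letter after the number, such as Zfp607a, were not counted.

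Many Zfp genes of this kind arose by repeated duplication of neighbouring genes and encode proteins with long arrays of DNA-binding zinc fingers. A large share of them carry a KRAB domain, which recruits KAP1, the product of Trim28. KAP1 in turn brings the methyltransferase SETDB1 and HP1 proteins, and the resulting silent chromatin covers retroelements and, in other cell types, many zinc finger genes themselves, where KAP1 is best known from the 3′ part that encodes the fingers. The members are named by symbol, so the KRAB domain was not checked. Zfp36, which encodes the RNA-binding protein tristetraprolin and not a factor of this kind, met the rule by its name and had no summit of either replicate.

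KAP1 was mapped by chromatin immunoprecipitation and sequencing in regulatory T cells from the spleen of C57BL/6 mice. The cells had been sorted and grown for 2 weeks. Both KAP1 samples, called replicates 1 and 2, have a list of peak summits, the base of highest enrichment in each peak. The 2 input samples, made without antibody, were not analysed here. All groups share strain, tissue and cell type, and no treatment or genotype was compared, so the only comparison possible is between places in the genome within these libraries.

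The lists differ greatly in length, with 8862 summits in replicate 1 and 79515 in replicate 2. On chromosomes 1 to 19, 7641 replicate 1 summits (87.0% of 8778) had a replicate 2 summit within 200 bp, and these are called shared. The read depth behind each list is unknown, and no label tells if the replicates are separate cultures, which leaves a technical difference between them possible. Scores are the authors' −log10 values, of a p-value or of a q-value (which one is not stated), and serve only to describe or rank summits within a list. Intervals are Wilson 95% intervals and cover counting error only. Genes of a cluster are neighbours and related copies, so they are not independent observations, and no test was made on the list.

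KAP1 was found at the 5′ ends of a small number of clustered Zfp genes in both replicates, and rarely in their bodies. Of the 215 members, 25 had a shared summit within 1 kb of an end, or 11.6% (8.0 to 16.6%), against 8.94% of all coding genes. In their bodies, meaning the gene without 1 kb at each end, 8 members had a shared summit, or 3.72% (1.90 to 7.17%), against 12.9% of all coding genes. At an end or in the body, 32 members had a shared summit (14.9%, against 18.7% of all coding genes). Zfp444 was the only member with both. A further 79 members had replicate 2 summits without any replicate 1 summit, 4 had a replicate 1 summit that was not shared, and 100 had no summit of either replicate. Counting all replicate 2 summits, 115 members (53.5%) had one at an end or in the body, against 59.5% of all coding genes.

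The end share lies near the background in each list. With all replicate 1 summits, 27 members (12.6%) had one at an end, against 9.84% of coding genes, and 11 (5.12%) had one in the body, against 13.8%. With all replicate 2 summits, 60 members (27.9%) had one at an end, against 23.2%, and 91 (42.3%) had one in the body, against 56.4%. The body shares of the members were below those of all coding genes in both lists.

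Gene length bears on the body share, since a long gene has more room for a summit. The median length was 16072 bp for members and 17491 bp for all coding genes, but only 14 members exceeded 40 kb, and none of these 14 had a shared summit in the body, against 24.2% of coding genes of that length. Among genes of 10 to 20 kb, 3 of 98 members (3.06%) had a shared body summit, against 8.65% of coding genes. Among genes of 20 to 40 kb, 4 of 71 members (5.63%) had one, against 13.5%. Among genes of 2 to 10 kb the shares were 3.12% and 2.81%. In replicate 2, members of 10 to 20 kb were close to coding genes of that length (42.9% against 45.9%), and members of 20 to 40 kb were lower (52.1% against 69%). Per length of body sequence, members held 1.85 shared summits per Mb, against 3.53 in the bodies of all coding genes, and 33.9 replicate 2 summits per Mb, against 38.9.

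Zfp genes outside clusters had the same share of shared summits at ends as members did, 17 of 145 (11.7%, 7.45 to 18%), and a larger share in bodies, 24 of 145 (16.6%, 11.4 to 23.4%). Their median length was 21541 bp. Among genes of 10 to 20 kb, 5 of 45 had a shared body summit (11.1%), and among genes of 20 to 40 kb, 7 of 43 (16.3%). Above 40 kb, 12 of 34 had one (35.3%), and at 2 to 10 kb, 0 of 23. The 209 other coding genes inside the cluster spans include Zfp genes with a letter after the number, such as Zfp729b. They had a shared summit at an end in 19 cases (9.09%) and in the body in 15 of 192 (7.81%). In replicate 2, 65 of these 192 (33.9%) had a body summit, a lower share than the 42.3% of members. Of the Zfp genes outside clusters, 84 of 145 (57.9%) had a replicate 2 body summit. These differences were not tested.

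Strand, which separates the start of a gene from its 3′ end, was known for 187 members. A shared summit lay at the 5′ end of 20 of them (10.7%, 7.03 to 15.9%), against 7.80% of coding genes with known strand, and at the 3′ end of none (0%, 0 to 2.01%), against 1.31%. At a background of 1.31% few members could have had one, so the absence at the 3′ end does not set them apart. In replicate 2, 37 members had a summit at the 5′ end (19.8%, against 16.8%) and 12 at the 3′ end (6.42%, against 8.35%). With each body cut into 3 equal parts, 45 of 125 replicate 2 summits (36.0%) lay in the part nearest the start, 40 (32.0%) in the middle and 40 (32.0%) in the part nearest the 3′ end. The shares in all coding genes were close to these, at 36.7%, 32.3% and 31.0%. Of the 5 shared body summits in members of known strand, 3 lay nearest the start, 2 in the middle and 0 nearest the 3′ end. Exons were not analysed here, so the part that encodes the fingers was not located.

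**Figure D1:**
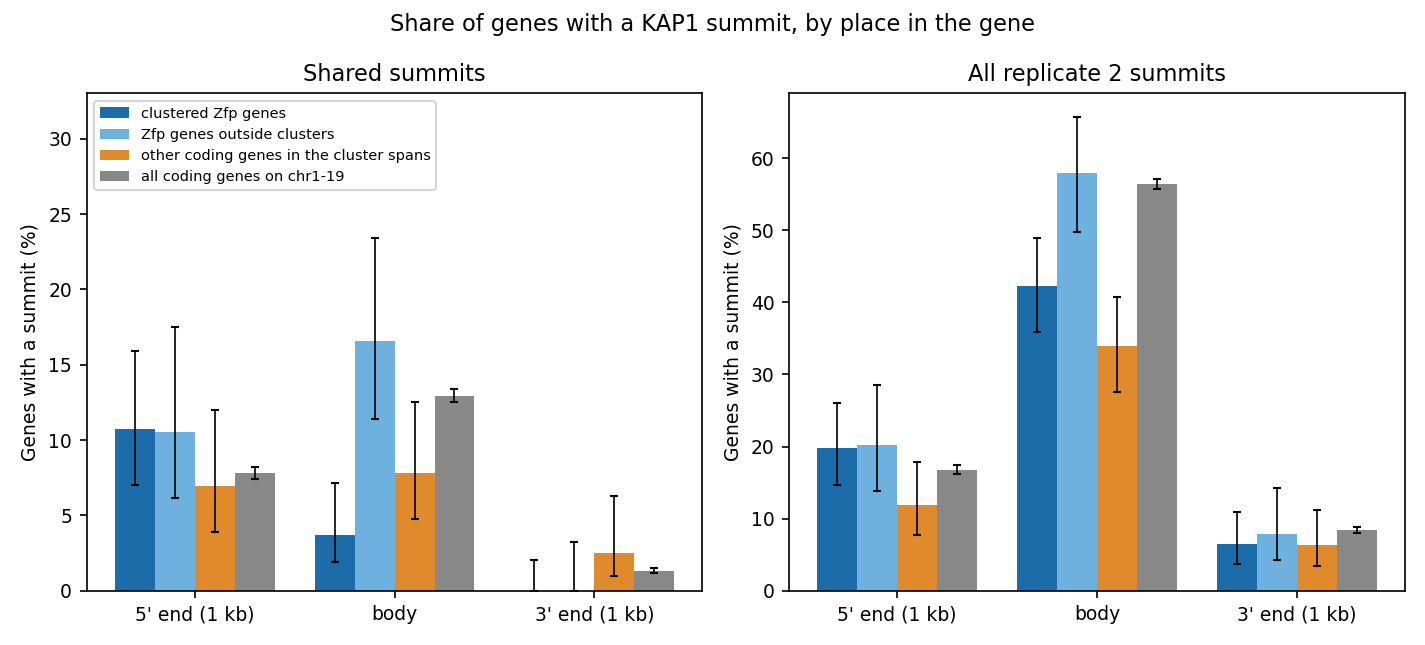
Percent of genes with a KAP1 summit within 1 kb of the 5′ end, in the body, and within 1 kb of the 3′ end, for shared summits (left) and all replicate 2 summits (right), with Wilson 95% intervals as bars. The 215 clustered Zfp genes (187 for the ends) are low for bodies in the left panel (3.72%) and at 0% for the 3′ end, where all coding genes are at 1.31%.

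The shared summits at the starts lay close to the annotated coordinate. Counted per gene, so that a summit shared by neighbours counts for each, the 20 genes had 21, of which 9 lay before the gene and 12 inside it, at a median distance of 340 bp, and 9 lay within 200 bp. The farthest were 944 bp before and 888 bp inside. The 5 members with a shared end summit but no known strand were Zfp865, Zfp87, Zfp251, Zfp40 and Zfp35.

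In 7 members the shared summit fell inside the stretch from 250 bases before to 50 bases after a transcript start that RefSeq lists (GRCm38.p6, the coordinates of mm10). Of these, the 5 that rank highest by the mean of the score percentiles in both lists are printed, because they show what DNA lies beneath a summit at a clustered Zfp start. They are read 5′ to 3′ on the strand of the gene, and capitals mark the 21 bases centred on the replicate 1 summit. The windows are chr17:33394588-33394887 (minus strand) for Zfp101, chr7:43579336-43579635 (plus strand) for Zfp719, chr9:20385109-20385408 (minus strand) for Zfp560, chr7:43562120-43562419 (plus strand) for Zfp658 and chr5:138155695-138155994 (minus strand) for Zfp113.
Zfp101: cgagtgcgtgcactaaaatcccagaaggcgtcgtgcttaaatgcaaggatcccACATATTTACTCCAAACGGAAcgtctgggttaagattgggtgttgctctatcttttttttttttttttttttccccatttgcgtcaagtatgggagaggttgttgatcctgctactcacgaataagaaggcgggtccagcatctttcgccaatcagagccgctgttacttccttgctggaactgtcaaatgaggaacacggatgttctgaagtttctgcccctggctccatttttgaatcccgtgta
Zfp719: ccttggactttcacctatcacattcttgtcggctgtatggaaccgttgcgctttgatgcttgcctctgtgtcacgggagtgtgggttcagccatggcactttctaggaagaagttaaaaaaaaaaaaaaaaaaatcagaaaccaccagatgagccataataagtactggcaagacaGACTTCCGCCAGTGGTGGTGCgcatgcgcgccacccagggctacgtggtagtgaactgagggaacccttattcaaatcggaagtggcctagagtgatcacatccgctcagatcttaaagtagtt
Zfp560: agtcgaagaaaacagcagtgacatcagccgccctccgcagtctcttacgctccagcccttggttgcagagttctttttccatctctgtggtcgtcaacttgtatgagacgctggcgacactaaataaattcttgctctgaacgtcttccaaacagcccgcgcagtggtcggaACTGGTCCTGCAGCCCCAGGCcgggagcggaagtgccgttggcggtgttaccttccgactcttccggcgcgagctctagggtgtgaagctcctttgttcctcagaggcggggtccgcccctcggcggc
Zfp658: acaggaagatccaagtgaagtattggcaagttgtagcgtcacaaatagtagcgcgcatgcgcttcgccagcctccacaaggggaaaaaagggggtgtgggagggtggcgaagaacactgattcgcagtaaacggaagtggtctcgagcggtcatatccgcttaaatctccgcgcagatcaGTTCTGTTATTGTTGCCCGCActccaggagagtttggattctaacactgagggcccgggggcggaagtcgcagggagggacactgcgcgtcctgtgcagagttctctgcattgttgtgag
Zfp113: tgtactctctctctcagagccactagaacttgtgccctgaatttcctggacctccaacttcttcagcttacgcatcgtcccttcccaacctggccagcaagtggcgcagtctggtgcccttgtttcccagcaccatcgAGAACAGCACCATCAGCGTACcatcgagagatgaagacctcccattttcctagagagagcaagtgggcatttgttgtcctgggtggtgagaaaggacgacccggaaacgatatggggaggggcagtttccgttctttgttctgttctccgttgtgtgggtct

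In these windows the summit lay 187, 64, 68, 60 and 102 bases before the transcript start, in the order printed. They held 13, 11, 23, 19 and 11 CpG dinucleotides, against a median of 11.0 over the 187 members with a window and 14 over the windows of 16457 coding genes, 1 for each gene. Over the members with a shared summit at the 5′ end the median was 12.5, and over those without a replicate 2 summit there it was 10. Among all coding genes the same medians were 21.0 and 12. The counts of the 20 members ran from 1 to 23. These medians were not tested against each other.

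6 short motifs were searched on both strands of all windows: CCGGAAGT (bound by ETS factors), TGACGTCA (the CRE), AAGATGGC (YY1), GCGCATGCG (NRF1), ACTACAATT (ZFP143) and GGGCGG (the GC box). The ZFP143 letters were found in 8 of 187 member windows (4.28%) and in 0.577% of coding windows. None of the 20 with a shared summit at the 5′ end held them, against 0.779% of coding windows with one. The NRF1 letters were found in 10 members (5.35%, against 2.45%), and in 3 of the 20 (15.0%, against 5.06% of coding windows with such a summit). The windows of the neighbours Zfp658 and Zfp719 printed above both hold them. The ETS letters were found in 19 members (10.2%, against 5.44%) and 3 of the 20 (15.0%, against 11.1% of coding windows with such a summit). The YY1 letters were found in 9 members (4.81%, against 3.21%), the CRE in 6 (3.21%, against 2.40%) and the GC box in 75 (40.1%, against 47.3%). A match is only a match of letters, and these shares were not tested.

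Among the members, Zfp809 carried the strongest shared summit by rank in both lists. Zfp809 encodes a factor known for silencing murine leukaemia viruses, whose primer binding site it recognises before KAP1 is recruited. Its gene lies on the plus strand of chromosome 9 from 22225667 to 22254117. A shared summit 498 bp before its start had a score of 28.0 in replicate 1 and 59.9 in replicate 2, the 94.1 and 99.6 percentiles of the lists. A weaker one lay 786 bp inside the gene, with scores of 13.3 and 19.3. Replicate 2 alone had 3 further summits in its body, at 36.0%, 73.6% and 95.4% of the gene length. The last 2 of these also lie inside Zfp599, whose coordinates overlap those of Zfp809, so they cannot be assigned to either gene. Zfp599 itself had 5 replicate 2 summits and none shared.

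Zfp101, on the minus strand of chromosome 17 from 33380174 to 33394637, followed with a summit 187 bp before its start and scores of 23.1 and 48.0. Zfp719, on chromosome 7, had scores of 14.4 and 34.2 at a summit 37 bp before the gene coordinate. Zfp27 (14.6 and 23.8, 348 bp inside) and Zfp948 (11.5 and 43.6, 454 bp inside) were the next at a 5′ end. Zfp40 (14.6 and 20.5), Zfp251 (12 and 18.6) and Zfp865 (9.73 and 31.9) had comparable summits at an end of unknown type. The 2 replicates ordered these genes differently, with Zfp948 and Zfp865 standing higher in replicate 2 than in replicate 1.

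The remaining members with end summits ranked lower by the mean of both lists' percentiles. Zfp444 had one 886 bp before its start (11.9 and 8.60) and a second in the body, 2209 bp inside (10.3 and 20.2). Zfp110, which encodes a protein that binds the neurotrophin receptor p75, had one 26 bp before its start (5.10 and 5.51). Zfp113, Zfp60, Zfp715, Zfp658, Zfp868, Zfp882, Zfp560, Zfp653, Zfp52, Zfp87 and Zfp35 had replicate 1 scores between 4.17 and 8.34. Zfp942 and Zfp943 start head to head on chromosome 17 and share 1 summit (7.64 and 18.4), 944 bp before the first and 888 bp inside the second. The lowest by mean rank were Zfp160 (4.17 and 5.31) and Zfp677 (2.31 and 3.37), which the rule for named genes left out. Over the 25 distinct end summits the median score was 7.64 in replicate 1 and 9.88 in replicate 2, against 8.34 and 12.3 over all shared summits of chromosomes 1 to 19.

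In bodies, the shared summits of Zfp574 and Zfp746 ranked highest by mean percentile, although Zfp141 and Zfp444 scored above Zfp746 in replicate 2. The Zfp574 summit, in a gene on chromosome 7 from 25075674 to 25083492, had scores of 21.0 and 53.2 and lay 1042 bp inside the lower coordinate, just past the 1 kb end window. It also lay 1022 bp from an end of Grik5. Zfp746, which encodes PARIS, a repressor of the coactivator gene Ppargc1a, had one 3207 bp inside its start (19.8 and 19.4). Zfp141 had one at 45.4% of its length (10.6 and 35.5) and Zfp879 one at 44.4% (5.10 and 7.57). Zfp777, Zfp41 and Zfp870 had replicate 1 scores of 4.61, 4.17 and 5.10.

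Some well-studied members had KAP1 summits in replicate 2 alone. Zfp568, which encodes a repressor of a placental Igf2 transcript, had 1 at an end (5.96) and 4 in its body, the highest with a score of 15.8. Zfp445, a factor that helps to maintain imprints, had 4 in its body and none at an end, with scores of 23.5, 16.3, 8.33 and 5.47. Zfp282 had 5, at both ends and in the body, with scores from 4.98 to 9.26, and Zfp13 had 5 with scores from 6.48 to 10.6. Zfp26 had 4 in its body (7.01 to 9.51). With Zfp809 and Zfp599, Zfp282, Zfp568 and Zfp13 are the 5 members with 5 replicate 2 summits, which is the most for any member. Zfp335, which encodes a factor needed for T cell maintenance, had summits in both lists but none shared at an end or in its body. Replicate 1 had 1 summit 221 bp inside its start (4.17) and 1 in its body (5.10). Replicate 2 had 1 elsewhere in its body (7.21). A shared summit (8.72 and 8.62) lay 1106 bp before its start, just past the 1 kb end window.

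The members fall into 33 clusters on 14 chromosomes, taking as 1 cluster the members whose starts follow each other within 500000 bp. The clusters hold a median of 5 members and at most 23, and chromosome 7 alone has 9 clusters with 76 members. In 1 case, Zfp965 on chromosome 2, the neighbours did not meet the rule themselves, so the gene stands alone. At least 1 shared summit was present in 23 clusters, and 7 others had replicate 2 summits only. Neither replicate had a summit in the remaining 3, which are Zfp965 alone, the cluster from Zfp972 to Zfp931 on chromosome 2 and that from Zfp12 to Zfp853 on chromosome 5. Each of these 3 spans less than 0.2 Mb.

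Shared summits in the clusters were found at the Zfp genes and, in larger number, between them. Of 97 shared summits, 25 lay at ends of members, 8 in their bodies and 64 (66%) between them. Of the 64, 36 lay in another coding gene or within 1 kb of it, 17 of these at its end, and 28 lay in no coding gene. The space between members makes up 11.7 of 16.8 Mb. Per length, ends of members held 29.6 shared summits per Mb, against 23.0 at the ends of all coding genes. Space in or by another coding gene held 9.99 per Mb and space without a coding gene 3.48 per Mb. In replicate 2, 346 of 561 summits (61.7%) lay between the members.

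**Figure D2:**
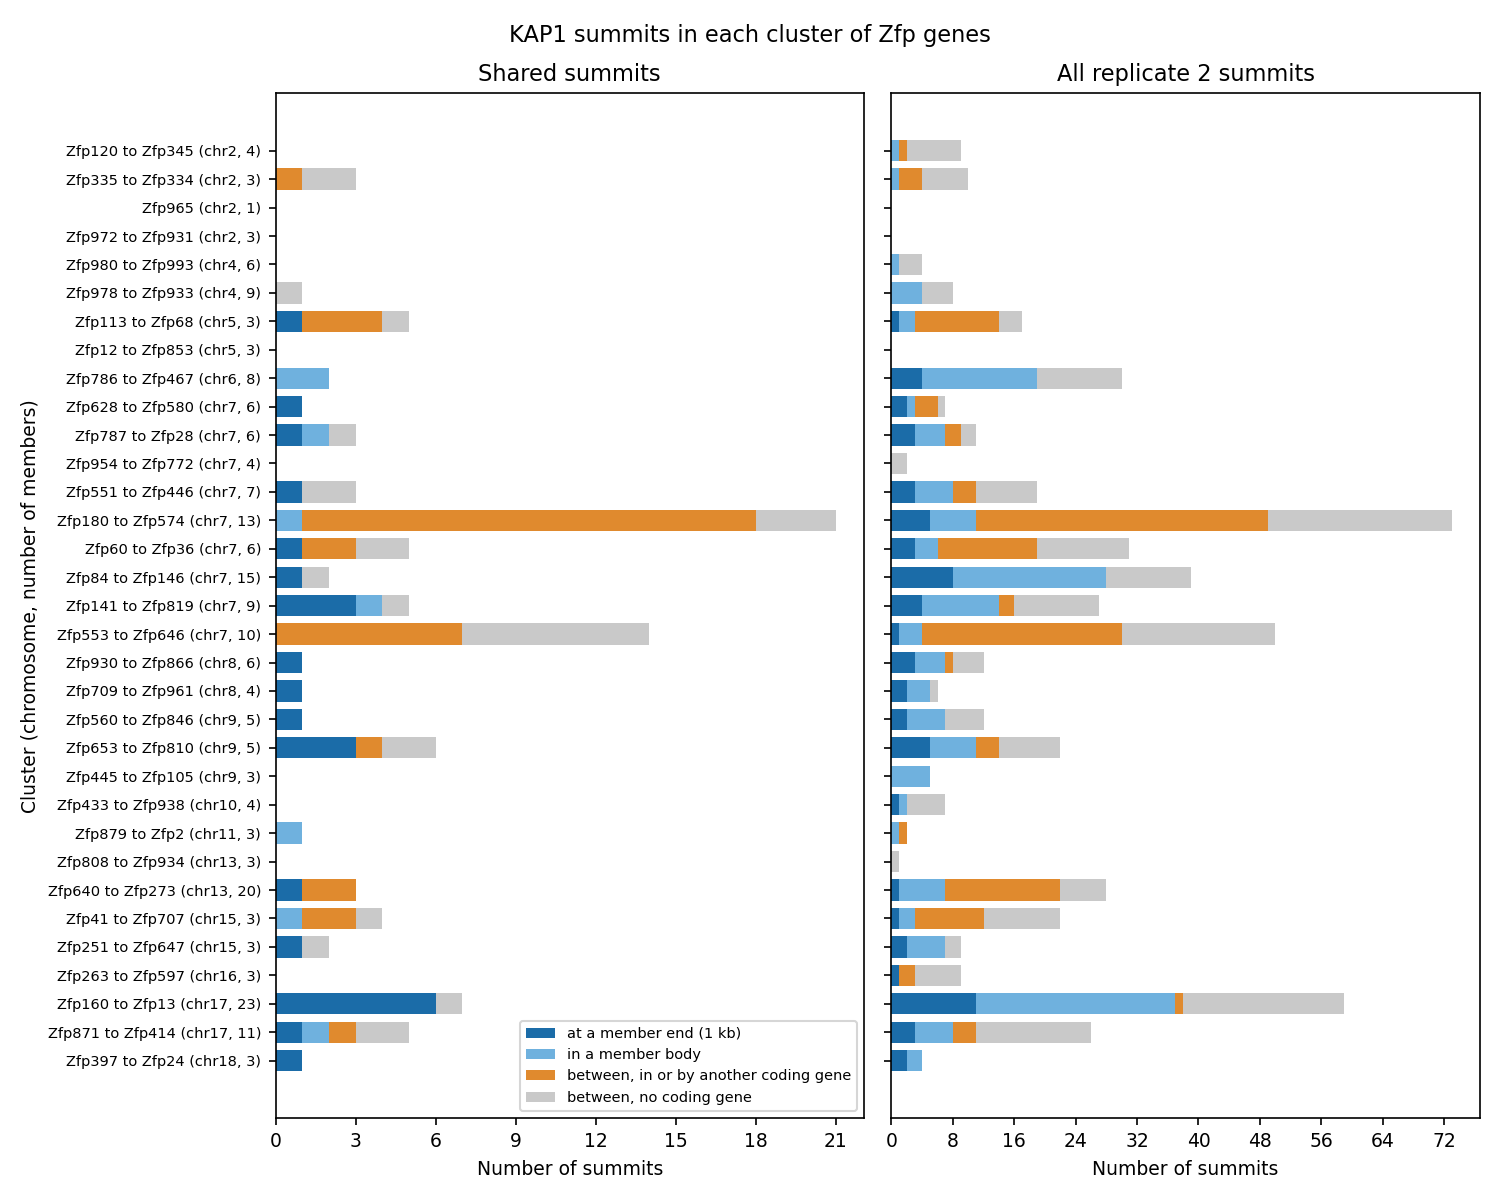
Number of shared summits (left) and of all replicate 2 summits (right) in each of the 33 clusters, labelled by first and last member, with chromosome and number of members in parentheses; colours give the place of the summit. The clusters from Zfp180 to Zfp574 and from Zfp553 to Zfp646 stand out with 21 and 14 shared summits, nearly all between members.

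A pair of clusters on chromosome 7 supplied 34 of the 64 shared summits between members. Without this pair, 30 of 62 shared summits lay between members and 32 at their ends or in their bodies, so the larger number between members rests on it. Across all clusters there were 5.78 shared summits per Mb of span, against 3.11 on chromosomes 1 to 19. Without the pair there were 4.10 per Mb, and within it 21.2 per Mb. In replicate 2 the density was 33.5 per Mb over all clusters, 29.0 without the pair and 74.3 within it, against 32.1 on chromosomes 1 to 19. These 2 clusters have 23 members, of which only Zfp574 had a shared summit at an end or in the body.

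In the cluster from Zfp180 to Zfp574, which has 13 members among 28 other coding genes (24081877 to 25083492), 20 of 21 shared summits lay between members. The genes around them are named after their values were seen. Kcnn4, which encodes a calcium-activated potassium channel of T cells, had a shared summit 152 bp inside an end with scores of 79.5 and 55.0, the highest replicate 1 score in any cluster, and 3 other shared summits were nearest to it. Plaur, the urokinase receptor gene, was nearest to 3, one of them 2998 bp outside the gene (63.7 and 55.3) and another 1850 bp from an end inside it (24.0 and 69.4). Smg9, a gene of nonsense-mediated decay, held 3. In replicate 2 the cluster had 73 summits, 62 of them between members.

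In the cluster from Zfp553 to Zfp646 (127233061 to 127885996), which has 10 members among 22 other coding genes, all 14 shared summits lay between members. The highest by replicate 1 score was 12910 bp from Zfp629, in no coding gene, with scores of 26.8 and 41.7. Itgal, which encodes the integrin subunit CD11a of lymphocytes, was the nearest gene of 3, all outside it. Setd1a, a histone methyltransferase gene, had one 493 bp outside an end (16.2 and 44.3), the highest of the cluster by replicate 2 score. Only 3 of the 10 members had any replicate 2 summit at an end or in the body, against 59.5% of all coding genes. This background is not matched for length. Several of the 10 are short, such as Zfp768 (2520 bp), Zfp747 (3514 bp) and Zfp688 (4279 bp), although Zfp764 has 27074 bp. Of coding genes of 2 to 10 kb, 15.2% had a replicate 2 summit in the body.

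**Figure D3:**
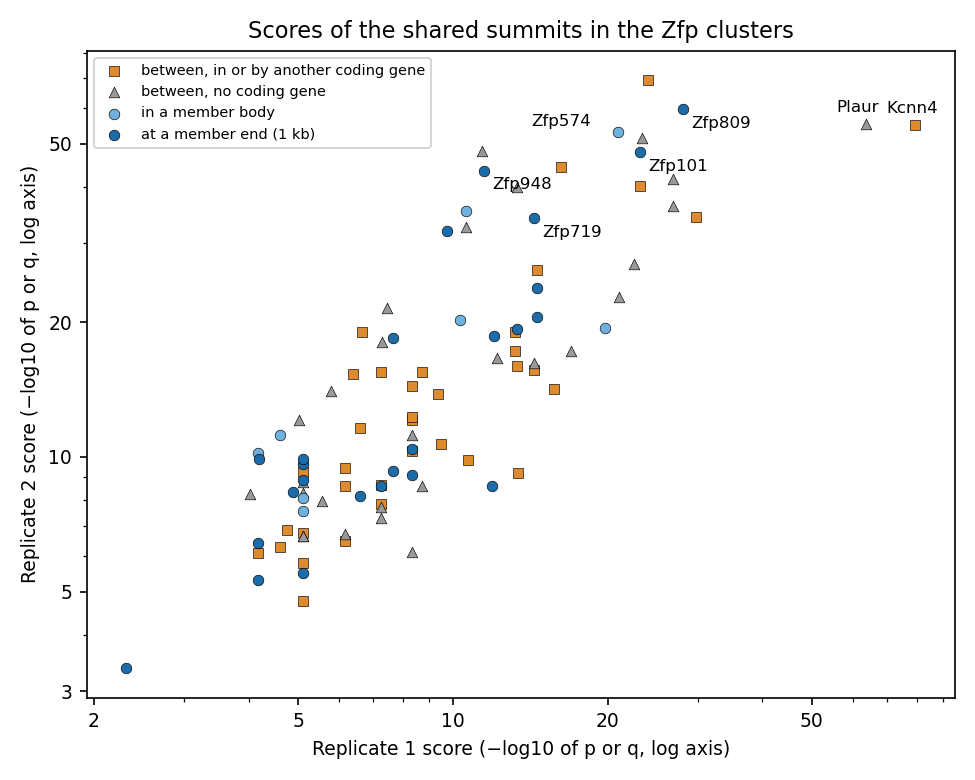
Replicate 1 score (horizontal) against replicate 2 score (vertical), both −log10 values on log axes, for the shared summits of the clusters, by place. The Kcnn4 and Plaur summits between members have the highest replicate 1 scores (79.5 and 63.7), and Zfp809 has the highest scores of a member (28.0 and 59.9).

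In several other clusters, shared summits or many replicate 2 summits lay at the members themselves. On chromosome 17, the cluster from Zfp160 to Zfp13 (21008941 to 23599755) is the largest, with 23 members. It had 7 shared summits, of which 6 lay at the ends of 7 members: Zfp160, Zfp677, Zfp52, Zfp948, Zfp942, Zfp943 and Zfp40. In replicate 2, 16 of its members had a summit, and it had 22.8 per Mb. Over all coding genes, 59.5% had a replicate 2 summit at an end or in the body, which is the background for such counts. The cluster from Zfp84 to Zfp146 on chromosome 7 (29768552 to 30169775) has 15 members and no other coding gene in its span. In replicate 2 it had 39 summits, or 97.2 per Mb, of which 28 lay at ends or in bodies, and 13 of the 15 members had at least 1. Only 2 of its summits were shared, that of Zfp27 and one 8429 bp from Zfp146 (4.03 and 8.25). The cluster from Zfp786 to Zfp467 on chromosome 6 was similar, with 30 replicate 2 summits, 7 of 8 members with at least 1, and 2 shared summits, in the bodies of Zfp746 and Zfp777. On chromosome 9, the 5 members from Zfp653 to Zfp810 had 22 replicate 2 summits (87.2 per Mb) and 6 shared, 3 of them at the ends of Zfp809 and Zfp653 and 3 between members. On chromosome 7, the cluster from Zfp141 to Zfp819, with 9 members among 19 other coding genes, had 5 shared summits, 4 of them at members (Zfp141, Zfp715, Zfp658 and Zfp719).

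In other clusters few members had a summit at an end or in the body, where 59.5% of all coding genes had one in replicate 2. On chromosome 4, the neighbouring clusters from Zfp980 to Zfp993 and from Zfp978 to Zfp933 have 6 and 9 members. They had 4 and 8 replicate 2 summits (3.03 and 11.0 per Mb), and only 1 shared, which lay 2441 bp from Zfp984 (11.4 and 48.3). On chromosome 13, the cluster from Zfp640 to Zfp273 has 20 members, of which 1, Zfp87, had a shared summit and 6 had any replicate 2 summit. Its span held 28 replicate 2 summits (24.2 per Mb), 21 of them between members, and 3 shared, 2 of them between members. Of these 2, 1 lay inside Rslcan18 and 1 lay 349 bp from an end of Zfp729b. Zfp729b has a letter after the number and so counts as another coding gene. The cluster from Zfp808 to Zfp934, also on chromosome 13, had 1 replicate 2 summit between its 3 members.

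Likeness between copies was measured, because reads from near-identical sequence cannot be placed at 1 copy. How such reads were treated is not given in the sources used here. Only promoter windows were compared, not bodies or 3′ ends. For each of the 187 members with a promoter window, its central 200 bases were compared with the windows of all other coding genes. In 31 members the best match was at 90% identity or more, in 24 it was between 70% and 90%, and in 132 no window reached 70%. A replicate 2 summit at an end or in the body was present in 4 of the 31 (12.9%), 11 of the 24 (45.8%) and 81 of the 132 (61.4%). Over all coding genes this share was 59.5%, near that of the 132. A shared summit was present in 2 (6.45%), 0 (0%) and 22 (16.7%) of them, against 18.7% of all coding genes. The 28 members without a window had replicate 2 summits in 19 cases (67.9%) and shared summits in 8 (28.6%). Among members with a window, replicate 2 summits were thus least frequent in those whose promoter window was most like that of another gene. The 4 of the 31 that had one, named after their values were seen, were Zfp758, Zfp942 and Zfp943 on chromosome 17 and Zfp936 on chromosome 7 (91.0%). The windows of those on chromosome 17 are 99.5% to 100% identical to that of another member. Zfp942 and Zfp943, the 2 of the 31 with a shared summit, have the same one. Their count thus rests on 1 summit and gives no order against the 0 of the 24. The clusters of chromosome 4 described above hold 8 of the 31. CpG counts moved with this as well, with a median of 8.0 in the 31 and 13.0 in the 132. The part of either in the low counts was not tested.

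**Figure D4:**
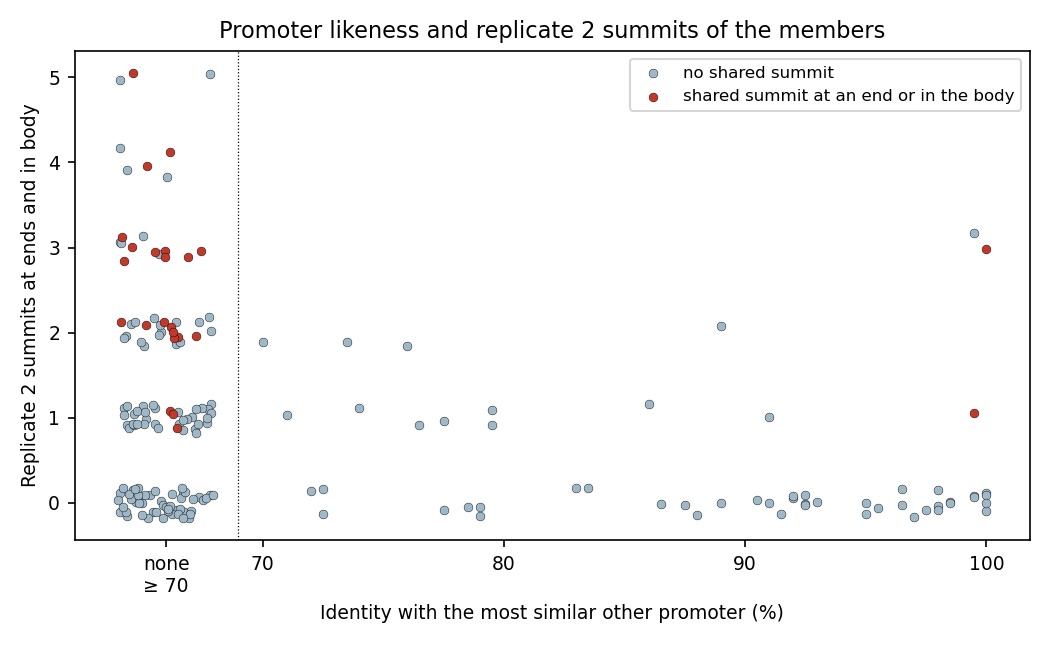
Replicate 2 summits at the ends and in the body of each of the 187 members (vertical, spread slightly) against the identity of its promoter window with the most similar window of another coding gene (horizontal, members without a match of 70% on the left). Of the 31 members at 90% or more, 27 lie at 0 summits, while 81 of the 132 members on the left have at least 1.

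Position alone decided membership, so the genes nearest the rule's limit are given. Zfp574, Zfp334 and Zfp335 were just inside, with their 2nd nearest Zfp gene at 491836, 482382 and 482382 bp. Zfp775, Zfp966 and Zfp968 were just outside, at 539616, 546249 and 546249 bp, and neither list placed a summit at their ends or in their bodies.

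The genes of the machinery that KRAB proteins use are a point of reference. Of 25 such genes listed, 24 lie on chromosomes 1 to 19, and 2 of these carried shared end summits, namely Setdb1, for the methyltransferase, and Atf7ip, for its cofactor. A shared body summit was present in 6. In replicate 2, 8 had a summit at an end and 19 in the body. Over all coding genes the shares for these 4 counts were 8.94%, 12.9%, 23.2% and 56.4%.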

How the data were processed

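Per the labels, KAP1-bound chromatin and input chromatin were sequenced from 2 samples each. Bowtie2 2.2.9, Picard 2.1.1, MACS2 2.2.1 and the build mm10 are named in the submitters' processing notes. The sources used here give no settings, thresholds or use of the input. The authors deposited 1 summit list for each KAP1 sample, whose score is a −log10 value. Positions are 1-based.

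Gene coordinates came from RefSeq (GRCm38.p6), and strand and sequences from its promoter table, which matched 187 of 215 members. Where a gene had several windows, that nearest its outermost 5′ coordinate was used. Exons were not analysed here, and the planned protein comparison was not run. Summits were counted with Python 3.11.15, numpy 2.4.6, pandas 2.3.3 and scipy 1.17.1. A cluster span runs from its lowest to its highest member coordinate. Promoter identity was taken from the edit distance on the gene's own strand, by edlib. The counting was tested on simulated data.

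The named genes were the 30 members with the highest-ranking shared summits, the member or members (up to 3) with the most replicate 2 summits in each cluster, the 3 genes on each side of the limit, Zfp568 and Zfp809. Not all of them are described. Members, lists and rules were chosen with earlier results of these data known. The breakdowns by gene length, promoter likeness, motif and strand were added once the files had been seen.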

Additional observations from a re-analysis of the deposited data

How the results depend on the processing

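The number of members with a shared summit at an end, 25, was 22 and 25 at shared distances of 50 and 500 bp. The share of such members stayed above that of all coding genes under all alternatives tried. These recount the same 2 lists, so they add no separate evidence. The main interval, 8.0 to 16.6%, includes the 8.94% of all coding genes. At ends of 2500 bp, 37 members had one at an end (17.2%, against 13.2%). In the body 3 of 215 had one, where the share of all coding genes was 12.5%. With scores at or above the median of each list, 15 members (6.98%, against 5.21%) had a shared summit at an end. In the body 4 of 215 had one, where the share of all coding genes was 8.04%, and 38 shared summits lay between members. With replicate 2 reduced to its highest scores, as many as replicate 1 has, these counts were 10 (4.65%, against 4.02%), 4 and 28. The share of all coding genes with a body summit was then 6.37%. Without either replicate in turn, members with an end summit numbered 27 to 60 (12.6% to 27.9%) and members with a body summit 11 to 91. Of all coding genes, 9.84% to 23.2% then had an end summit and 13.8% to 56.4% a body summit. Summits between members numbered 73 to 346 and clusters with a summit 23 to 30. With starts within 250000 bp, 177 members remained and 34 shared summits lay between them. With 4 or more other Zfp genes there were 152 members, 4 with a body summit (12.9% of all coding genes had one), and 39 summits between them. Here fewer genes were counted. Adding symbols with a letter, an alternative chosen after seeing the data, gave 230 members, 27 with an end summit (11.7%, against 8.94%). Of the 30 named members with a shared summit, 18 kept one at scores at or above the medians and 14 with replicate 2 reduced. No paired analysis was possible because the input samples, which carry the same replicate numbers, have no list of their own and no test between groups was made. Read depth is unknown, so a place without a summit is one where none was called.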
